A study of Mus musculus with 8 samples.

Results

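Tenascins and other matricellular proteins were followed as 10 genes in skin fibroblasts of mice with and without a mutation in Nd2, a mitochondrially encoded subunit of respiratory chain complex I. The genes were the tenascins Tnn, Tnc and Tnxb, the thrombospondins Thbs1 and Thbs2, periostin (Postn), Sparc, osteopontin (Spp1) and the CCN family genes Ctgf and Cyr61. They are 10 of 18138 gene symbols and 21 of 25697 probes on the array. The group was chosen by the strain difference of Tnn, which was among the lowest in the mutant, and the other members were added as secreted proteins of the same kind. The strain differences of all members are therefore given as a description, and the counts of members called for strain are printed beside their background with nothing read from them. Differences between the sexes, their interaction with strain and the covariation of members within strains were not part of the rule of choice and were tested. Earlier results of these data were known when the members were chosen, so full independence of these tests from the choice cannot be shown.

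RNA came from cultured fibroblasts of 4 Nd2-mutant mice of the conplastic strain C57BL/6J-mtALR/LtJ (males 28 and 32, females 34 and 35) and 4 control mice of the strain C57BL/6J-mtAKR/J (males 16 and 17, females 15 and 37), all 12 months old. In conplastic strains the mitochondrial genome of a donor strain is combined with a common nuclear genome, here that of C57BL/6J, and both strains thus carry donor mitochondria. Each array stands for 1 mouse, the cells were kept in DMEM with fetal calf serum, and no other agent is named in the labels of either strain. As limits of the model, all cells of a mouse carry the mitochondrial genome of its strain, and each culture was an isolate from dissociated skin, with no sort named in the labels.

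Matricellular proteins are secreted into the extracellular matrix but, unlike collagens, mainly act as signals. They bind integrins, other receptors, growth factors and matrix fibres, and thereby modulate adhesion, migration and matrix assembly. In adult skin many of them are low at rest and rise in wounds, in fibrosis and under mechanical load. Ctgf, Cyr61 and Ankrd1 are classical targets of the co-activators YAP and TAZ, which act through the TEAD transcription factors, and Thbs1 and Cyr61 also respond rapidly to serum.

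Fibroblast markers were detected throughout. All 14 fibroblast genes on the list were tested, Fap being the 1 that was missed on an array, and Col1a1, the chain of type I collagen, lay between 7364 and 11596 in normalized intensity, the unit of all levels below. Detected probes numbered 10973 to 11350 on arrays of the mutant and 10663 to 10837 on those of the control. Over the 10414 tested probes the mean correlation of an array with the other arrays was 0.934 for control mouse 15 and 0.963 to 0.974 for the other 7. Summed macrophage markers reached 5140 in mutant mouse 35 and at most 1695 in any other mouse. Ptprc, the pan-leukocyte antigen CD45, was the 1 of 14 genes of this list that was detected on no array. Summed endothelial markers reached 1004 in control mouse 15 and at most 487 in any other mouse. Kdr, the VEGF receptor of endothelial cells, was the 1 of 9 genes of this list that was detected on no array.

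Promoter windows of the 250 bases before the RefSeq start site (build GRCm38.p6) were found for 8 of 10 members, Thbs1 and Ctgf being the others. The windows of Tnn and Cyr61 are shown because Tnn gave the choice of the group and Cyr61 the widest difference between the sexes. They were searched on both strands for the TEAD core GGAATG and for the AP-1 site TGANTCA, 2 motifs that do not overlap in these windows. The Tnn window is chr1:160153576-160153825 and the Cyr61 window (listed as Ccn1) chr3:145649986-145650235, each on the minus strand of the genome and printed 5′ to 3′ along the gene. Capitals mark a TEAD core, which in Cyr61 lies on the opposite strand.
Tnn: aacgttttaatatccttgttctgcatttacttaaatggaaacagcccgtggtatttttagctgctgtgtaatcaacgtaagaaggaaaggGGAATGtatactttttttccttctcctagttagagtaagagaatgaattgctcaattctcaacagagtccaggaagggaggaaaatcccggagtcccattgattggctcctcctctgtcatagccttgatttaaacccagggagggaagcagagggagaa
Cyr61: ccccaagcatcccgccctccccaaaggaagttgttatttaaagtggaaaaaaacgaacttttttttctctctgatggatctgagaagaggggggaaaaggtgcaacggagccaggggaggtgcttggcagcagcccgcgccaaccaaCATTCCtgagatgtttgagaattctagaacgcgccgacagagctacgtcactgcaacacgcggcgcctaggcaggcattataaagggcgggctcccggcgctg

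The TEAD core began 160 bases before the start of Tnn and 103 bases before the start of Cyr61. Of the 11 member windows, no other held this core. It occurred in 12.6% of 32851 promoter windows of the same length. The AP-1 site was found in 1 member window, 55 bases before the start of Tnxb, and in 6.75% of all windows. A match of these letters is a description of the sequence and no evidence of binding.

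Of the 21 member probes, 17 probes of 9 genes entered the fit, having been detected in each mouse of 1 strain or both. 14 of the 17 were detected on all 8 arrays. The other 3, of Tnn and Tnc, entered through 1 strain only, that in which they were higher. The 4 probes that did not enter were the single Postn probe and 3 of 4 Tnxb probes. A difference between strains is given below as mutant minus control on the scale of log2(intensity + 16), which understates changes of dim probes.

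Tnn encodes tenascin-N (also called tenascin-W), a hexameric glycoprotein known from bone, periosteum and tumour stroma. Its intensity was 9.0, 15.2, 18.3 and 13.3 in mutant mice 28, 32, 34 and 35 and 40.5, 44.5, 39.0 and 96.2 in control mice 15, 16, 17 and 37. Every mutant mouse thus lay below every control mouse, and the control female 37 stood above the other controls. The mean was 13.9 ± 3.88 (SD, n = 4) in the mutant and 55.0 ± 27.5 (SD, n = 4) in the control, a log2 difference of -1.19 (SE 0.23).

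The probe lay close to background. It was detected on 3 of 4 mutant arrays and on 4 of 4 control arrays, and mutant mouse 28 missed the detection threshold. Tnn thus entered the fit only through the control arrays, a filter that favours lower values in the mutant. The size of the difference depended on the value added before the logarithm, being -1.84 with 1 added and -0.69 with 50 added. It was -1.05 in males and -1.33 in females. Leaving out each mouse in turn gave -1.29 to -0.95, the latter without control mouse 37.

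In the order of strain differences Tnn was 15th from the lowest of the 10414 probes. Next to it lay Prf1 (perforin) with -1.19 (SE 0.62) on the lower side and Col7a1, the collagen of anchoring fibrils, with -1.18 (SE 0.40) on the upper side, and the strains overlapped for both. Emcn, a sialomucin of endothelial cells, followed at -1.20 (SE 0.27), and Mmp17, a membrane-bound metalloproteinase, at -1.18 (SE 0.22), both without overlap. Fkhl18 was 12th from the lowest at -1.22 (SE 0.35) and Igfbp2, an IGF-binding protein, 18th at -1.17 (SE 0.44). Values near the place of Tnn thus differed by less than their standard errors.

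Over the 8 mice the probes most like Tnn were those of 1200015F23Rik (Pearson r = 0.95), Dgkz, a diacylglycerol kinase (0.93), Mrvi1 (0.93), Fhl1, a LIM domain protein (0.93), and Mgll, monoglyceride lipase (0.93). Each of the 5 was lower in every mutant mouse than in every control mouse. These correlations are a description over mice that also share the strain difference. After each strain was centred on its own mean, r was 0.67 for Mrvi1 and 0.88 for Fhl1, the lowest and highest of the 5. The 5 were picked by their r with Tnn over these same 8 mice. That choice favours a high centred r too, so nothing is read from it.

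Markers of other cell types were set beside these values. No list had a probe with an adjusted p under 0.05 for strain (limma), and the sums below overlap between the strains. Smooth muscle and pericyte markers were lower in the mutant for 10 of 12 tested probes of 7 genes, with a median of -0.59. Of these probes 6 had an unadjusted p under 0.05 (background 7.63% of tested probes). Mcam probes gave -1.16, -1.06 and -1.03, Actg2 -1.22, Myh11 -1.06, Des -0.63, Cspg4 -0.54 and Tagln -0.46. Acta2 probes ran from -0.23 to 0.33, and probes of 1 gene are not independent. The summed level of the list was 24790 to 28543 in the mutant and 24037 to 37733 in the control. This sum is linear and carried mainly by Acta2, whose brightest probe lay between 10063 and 13935. Of the 12 tested probes 2, both of Mcam, were lower in every mutant mouse than in every control mouse (background 2.13%). Rgs5 and Cnn1 were the 2 of 9 genes of this list that were detected on no array. Endothelial markers were lower for 4 of 5 tested probes (1 at an unadjusted p under 0.05), at sums of 160 to 339 in the mutant and 289 to 1004 in the control. Macrophage markers were higher for 7 of 8 tested probes (0 at an unadjusted p under 0.05), at sums of 1202 to 5140 and 697 to 1695. The part of these cells in the strain values of the members was not tested, and in bulk RNA fewer cells of a type cannot be told apart from less RNA per cell.

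**Figure D1:**
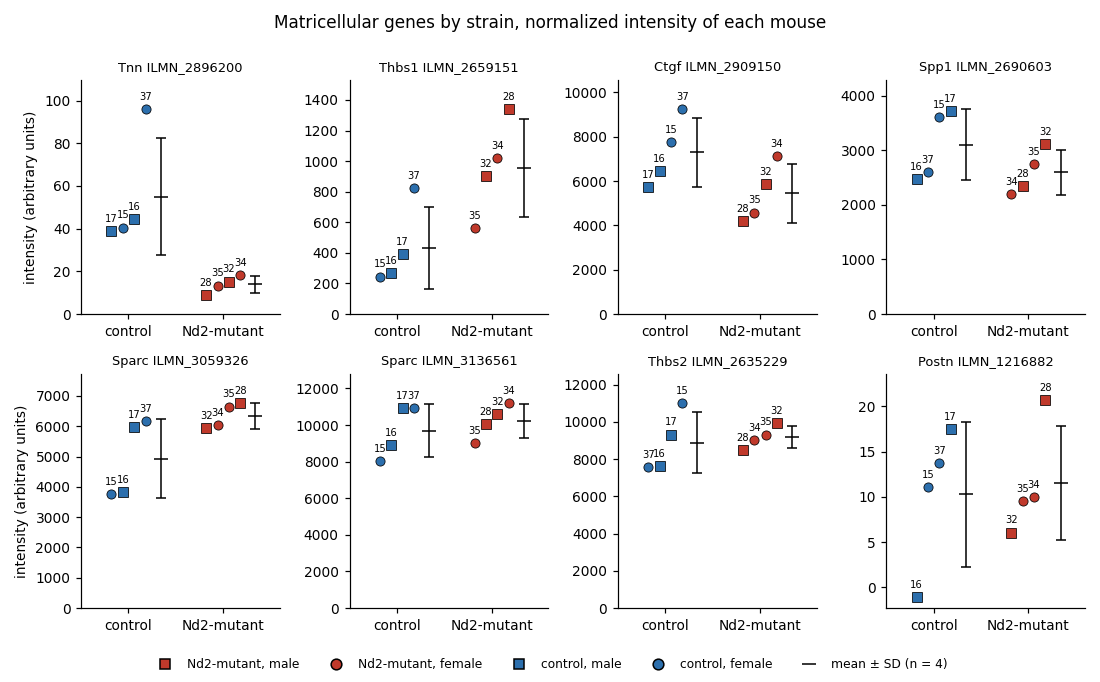
Normalized intensity (arbitrary units, linear axes) of 8 probes in each mouse by strain, with mouse numbers at the points, squares for males, circles for females and bars for mean ± SD of 4 mice. Every mutant mouse lies below every control mouse for Tnn, with control 37 at 96.2, and the strains overlap in the other 7 panels.

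The other large tenascin of fibroblasts, Tnc, was represented by 6 probes, and they did not behave alike. Tenascin-C is the wound and tumour-associated member of the family. Its brightest probe, ILMN_2463181, gave 6477, 7300, 9699 and 7443 in mutant mice 28, 32, 34 and 35 and 10372, 5242, 7443 and 8168 in control mice 15, 16, 17 and 37. The strains overlapped almost fully, and the log2 difference was 0.01 (SE 0.21). Probe ILMN_2463180, without a chromosome in the table, also differed little, at 0.05 (SE 0.21).

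Both Tnc probes of middle brightness varied more, with a standard deviation within strains of 1.02 and 0.86 on the log2 scale against 0.32 and 0.34 for the bright pair. Probe ILMN_2485085 gave 337, 365, 529 and 318 in the mutant mice and 1221, 108, 227 and 394 in the control mice, in the same order. The control mice 15 and 16 were the highest and the lowest of all 8, as they were for the bright pair, and the mutant mice lay between them. Probe ILMN_1236724 showed the same extremes, 255 in control mouse 15 and 27.3 in control mouse 16, against 50.5 to 121 in the mutant.

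The remaining pair of Tnc probes were dim and on average higher in the mutant. Both entered the fit only through the mutant arrays, a filter that favours this direction, so nothing is read from it. Probe ILMN_1251943 gave 46.1, 31.6, 62.6 and 21.3 in the mutant and 12.0, -0.31, 17.3 and 26.2 in the control, a log2 difference of 0.95 (SE 0.31). Control mouse 37 lay above mutant mouse 35, so that the strains overlapped, and the probe was detected on 4 of 4 mutant and 2 of 4 control arrays. With 1 added before the logarithm this difference was 2.10. Probe ILMN_2454497 was detected on 4 of 4 mutant arrays and 1 of 4 control arrays, with a difference of 0.33 (SE 0.16). The array table gives no position of the probes within the transcript, and it was not tested whether they report different isoforms.

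**Figure D2:**
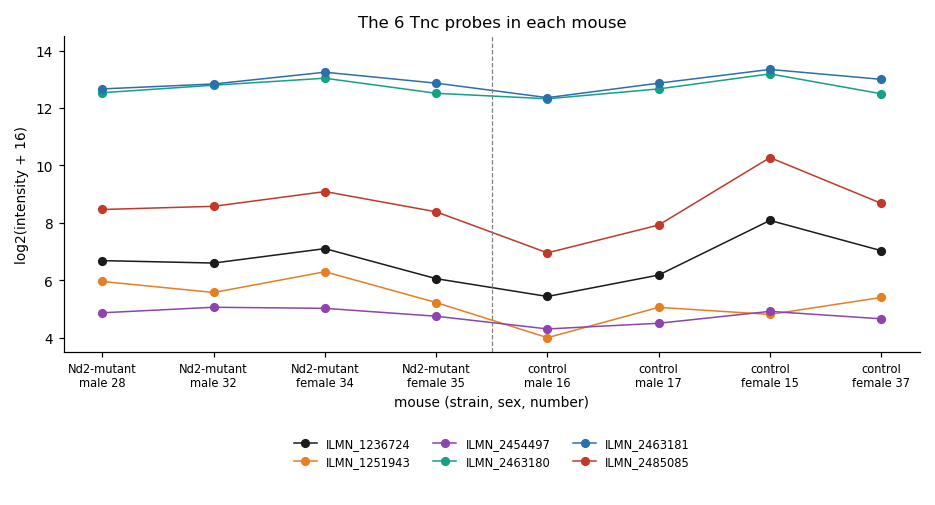
log2(intensity + 16) of the 6 Tnc probes in each of the 8 mice, ordered by strain and sex, with lines joining the values of 1 probe as a guide to the eye. All 6 probes are lowest in control mouse 16 and 4 are highest in control mouse 15, and these extremes lie further apart for ILMN_2485085 (108 to 1221) and ILMN_1236724 (27.3 to 255) than for the 2 brightest probes.

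Tnxb encodes tenascin-X, which organises collagen fibrils in the dermis. Only probe ILMN_2440823 entered the fit, with 10.7, 12.0, 38.5 and 57.4 in the mutant and 92.4, 23.4, 14.8 and 15.3 in the control. Both ranges were wide and overlapped, and the log2 difference was -0.12 (SE 0.44). Of the other 3 probes, ILMN_2492671 was detected on no array and stayed at or below 7.30 in every mouse. Probe ILMN_2444411 was detected on 3 of 8 arrays (4.72 to 36.3) and probe ILMN_2973958 on 5 of 8 (-4.09 to 44.6).

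Thbs1 lay at the other end of the order. Thrombospondin-1 activates latent TGF-beta and inhibits angiogenesis. Its probe gave 1343, 905, 1018 and 563 in mutant mice 28, 32, 34 and 35 and 245, 266, 391 and 822 in control mice 15, 16, 17 and 37. The mutant mice were high except for mouse 35, which lay below control mouse 37, and the strains overlapped only through these 2 females. The means were 957 ± 322 (SD, n = 4) and 431 ± 268 (SD, n = 4), a log2 difference of 1.22 (SE 0.37), which was 9th from the highest of all tested probes.

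The Thbs1 difference was 1.72 in males and 0.73 in females. Its interaction with sex was -0.998 (SE 0.75), which did not pass the test (limma, adjusted p = 0.9999), and it was -1.84 without control mouse 15, -0.58 without mutant mouse 35 and -0.16 without control mouse 37. For the strain difference, leaving out each mouse in turn gave 1.02 to 1.58. Thbs2, the second thrombospondin, was bright and even, with 8476, 9921, 9028 and 9315 in the mutant and 11027, 7637, 9315 and 7570 in the control. Its mutant values lay inside the control range, and the difference was 0.06 (SE 0.16).

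The CCN genes encode cysteine-rich growth regulators. Ctgf (connective tissue growth factor) gave 4205, 5873, 7119 and 4575 in the mutant and 7758, 6454, 5719 and 9261 in the control. The lowest values were those of mutant mice 28 and 35 and the highest those of control mice 15 and 37, but the ranges overlapped. The log2 difference was -0.43 (SE 0.21), -0.29 in males and -0.57 in females.

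The 3 Cyr61 probes gave strain differences of -0.03 (SE 0.51), -0.30 (SE 0.46) and 0.59 (SE 0.58), in the order ILMN_1235571, ILMN_2794645 and ILMN_2710253. They differed in sign, and only the last was larger than its error, by little. Without control mouse 16 it was -0.04. Ctgf, Cyr61 and Thbs1, which are often read together, thus showed no common direction between the strains.

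Sparc, a collagen-binding glycoprotein of fibroblasts, was high on every array. Probe ILMN_3059326 gave 6773, 5936, 6033 and 6647 in the mutant and 3763, 3839, 5965 and 6156 in the control, with a difference of 0.40 (SE 0.19), which was 0.19 with array weights. Control mice 15 and 16 were low and the other controls reached the mutant range. The second probe, ILMN_3136561, ranged from 9028 to 11219 in the mutant and from 8033 to 10914 in the control, a difference of 0.09 (SE 0.15).

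Spp1 (osteopontin), an integrin ligand made by fibroblasts, bone cells and macrophages, gave 2349, 3108, 2191 and 2739 in the mutant and 3613, 2471, 3721 and 2603 in the control. The ranges overlapped, with a difference of -0.24 (SE 0.19). Mutant mouse 35, which had the highest macrophage markers, was not set apart in Spp1. Postn, an integrin ligand that supports collagen assembly, was near background, at 20.7, 6.0, 10.0 and 9.5 in the mutant and 11.1, -1.0, 17.5 and 13.7 in the control. It was detected on 1 of 4 mutant and 2 of 4 control arrays and was not tested.

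Over the 17 tested member probes the strain difference was below 0 for 7 and above 0 for 10, ranging from -1.19 (Tnn) to 1.22 (Thbs1). The median was 0.05, against 0.00093 over all tested probes. Tnn was the 1 probe lower in every mutant than in every control mouse (background 2.13% of tested probes), and 0 were higher without overlap (background 2.24%). By limma, 0 of 17 had an adjusted p under 0.05, as did 0% of all tested probes, and 3 of 17 had an unadjusted p under 0.05 against 7.63% of all. The methods' t-test called 0 after adjustment and 3 before. Since this contrast chose Tnn, nothing is read from these counts.

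**Figure D3:**
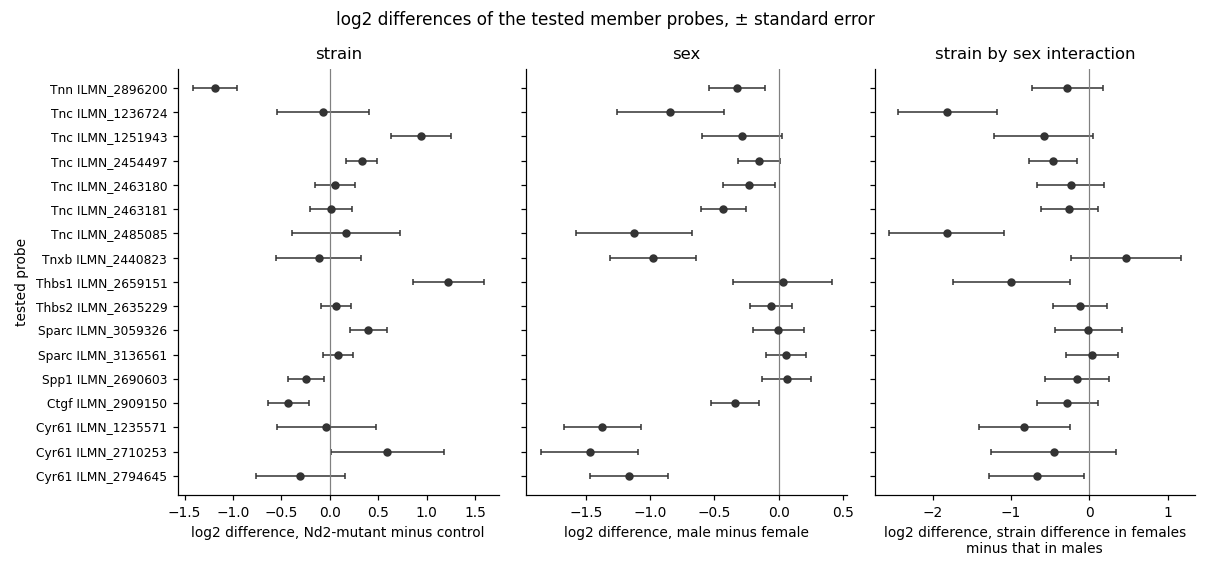
log2 difference (dot) and standard error (bar) of the 17 tested probes for strain (Nd2-mutant minus control), sex (male minus female) and their interaction (the strain difference in females minus that in males). Tnn at -1.19 and Thbs1 at 1.22 mark the ends of the strain panel, and the 3 Cyr61 probes lie furthest below 0 in the sex panel.

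Members differed widely in how much they varied between mice of 1 strain. The standard deviation within strains was 0.26 on the log2 scale for the median tested probe. It was 0.84 to 1.07 for the 3 Cyr61 probes, larger than that of 98.8% to 99.7% of all tested probes. Tnc probe ILMN_2485085 reached 1.02 (larger than 99.5%), Tnxb 0.79 (98.5%) and Thbs1 0.65 (96.8%). By contrast, Thbs2 had 0.19 (27.1%) and Sparc probe ILMN_3136561 had 0.18 (22.5%).

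Control mice 15 and 16 were often at the ends of the order. Control mouse 15 was the highest of the 8 mice for 8 of 17 probes, of Tnc, Tnxb, Thbs2 and Cyr61, and the lowest for 3, of Thbs1 and Sparc. Control mouse 16 was the lowest for 9 of 17 probes, all of Cyr61 and Tnc. Control mouse 15 was also the array with the lowest mean correlation and the highest endothelial markers, and the part of these in its member values was not tested.

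The sex of the mice was compared next, with strain as a term. Males were lower for 14 of 17 member probes and higher for 3, with a median male minus female difference of -0.32 against 0.01 over all tested probes. For 3 probes every male lay below every female (background 2.67% of tested probes), and all of them belonged to Cyr61. Before adjustment 6 probes had p under 0.05, all lower in males (background 4.45%), namely the 3 of Cyr61, 2 of Tnc and that of Tnxb. None passed limma's test after adjustment over all tested probes (0 of 17, background 0.0192%), the smallest adjusted p among members being 0.295. The methods' t-test, on the log2 scale and without strain as a term, also called 0 after adjustment, with 5 at an unadjusted p under 0.05. Probes of 1 gene share their transcript and are not independent.

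Cyr61 (CCN1) encodes an integrin-binding protein that can drive fibroblasts into senescence. Probe ILMN_1235571 gave 167, 287, 102 and 262 in males 28, 32, 16 and 17 and 439, 444, 707 and 524 in females 34, 35, 15 and 37. Every male lay below every female in both strains, and control mouse 16 was lowest and control mouse 15 highest. The difference was -1.37 (SE 0.30, limma adjusted p = 0.295). The exact permutation test gave an unadjusted p = 0.0286, the smallest that 4 against 4 mice allow. It used all 70 splits of the 8 mice without regard to strain.

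Both other Cyr61 probes separated the sexes too. Probe ILMN_2794645 gave 393, 756, 343 and 823 in males 28, 32, 16 and 17 and 917, 1050, 1763 and 1340 in females 34, 35, 15 and 37, a difference of -1.16 (SE 0.30, limma adjusted p = 0.362). Probe ILMN_2710253 gave 252, 323, 66.0 and 338 in the males and 718, 677, 460 and 628 in the females, a difference of -1.47 (SE 0.38, limma adjusted p = 0.362). In this last probe the order within the females changed, control mouse 15 being the lowest female instead of the highest. In the order ILMN_1235571, ILMN_2794645 and ILMN_2710253, the differences were -1.21, -1.02 and -1.51 without control mouse 15 and -1.04, -0.85 and -1.004 without control mouse 16. With array weights they were -0.87, -0.63 and -1.25.

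Tnxb was lower in males on average, at 15.2 ± 5.70 against 50.9 ± 32.6 (SD, n = 4 each), but female control mouse 37 lay among the males. The difference was -0.98 (SE 0.33, limma adjusted p = 0.515, exact permutation p = 0.0571). Without control mouse 37 it was -1.38 with an adjusted p of 0.0465 in limma, and with 1 or 50 added before the logarithm it was -1.48 or -0.58. The untested Tnxb probe ILMN_2973958 gave 5.24, -4.09, 14.0 and 1.91 in males 28, 32, 16 and 17. It gave 21.2, 25.8, 44.6 and 17.4 in females 34, 35, 15 and 37, above every male although close to background. For untested probe ILMN_2444411 the sexes overlapped, with males at 5.89 to 8.66, female 37 at 4.72 and the other females at 21.4 to 36.3. They also overlapped for ILMN_2492671, which was detected on no array.

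For Tnc the difference was -0.43 (SE 0.17, limma adjusted p = 0.578) by probe ILMN_2463181 and -1.13 (SE 0.45, limma adjusted p = 0.578) by probe ILMN_2485085. Without control mouse 15 these values were -0.34 and -0.63, and that of ILMN_2485085 was -0.75 without control mouse 16 and -0.55 with array weights. The other Tnc probes were less clear, at -0.84 (SE 0.42), -0.29 (SE 0.31), -0.23 (SE 0.20) and -0.15 (SE 0.16). These were ILMN_1236724, ILMN_1251943, ILMN_2463180 and ILMN_2454497, with limma adjusted p of 0.645 to 0.834. Ctgf, the relative of Cyr61, was -0.34 (SE 0.19) and its sexes overlapped. Sparc, Spp1, Thbs1 and Thbs2 differed between the sexes by -0.06 to 0.06, less than their standard errors.

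Marker lists were compared between the sexes as well. Their sums overlapped except for adipocyte markers, at 24.6 to 44.9 in males and 58.8 to 168 in females. Fibroblast markers were lower in males for 16 of 16 tested probes, with a median of -0.21 and 0 at an unadjusted p under 0.05, and their sums were 47268 to 58480 in males and 53624 to 73761 in females. Macrophage markers were lower in males for 8 of 8 tested probes, with a median of -0.63, 0 at an unadjusted p under 0.05 and sums of 697 to 1588 in males and 841 to 5140 in females. Endothelial markers were lower in males for 4 of 5 probes, Schwann cell markers for 2 of 2, and keratinocyte markers were higher for 2 of 2 (median 0.64). Each of these lists had 0 at an unadjusted p under 0.05. Smooth muscle and pericyte markers were higher for 6 and lower for 6, with 1 of the lower at an unadjusted p under 0.05 (background 4.45%). The 1 tested adipocyte probe, of Pparg, also had an unadjusted p under 0.05. It was lower in every male (16.1 to 33.6) than in every female (50.1 to 119), with a difference of -1.24 (SE 0.23, limma adjusted p = 0.206). The part of these levels in the Cyr61, Tnxb and Tnc values was not tested.

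**Figure D4:**
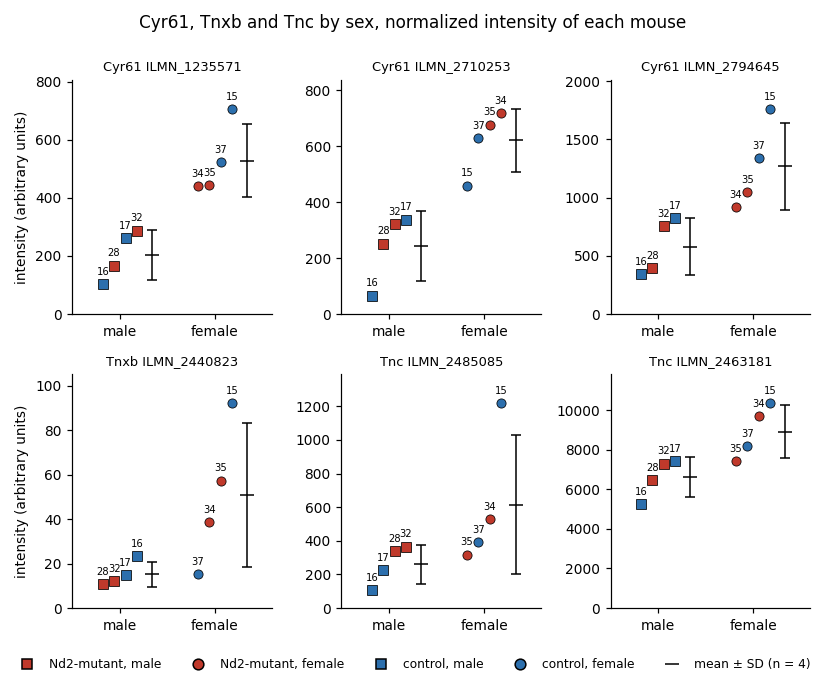
Normalized intensity (arbitrary units, linear axes) of the 6 member probes with an unadjusted p under 0.05 for sex, by sex, with mouse numbers at the points, colours for strain and bars for mean ± SD of 4 mice. The sexes are separate in the 3 Cyr61 panels, a female lies among the males for Tnxb and Tnc ILMN_2485085, and for Tnc ILMN_2463181 the lowest female equals the highest male at 7443.

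The strain difference was then compared between the sexes. The interaction, the strain difference in females minus that in males, was below 0 for 15 of 17 member probes, with a median of -0.28 against 0.03 over all tested probes. By limma 0 passed after adjustment (background 0.0096%) and 2 had an unadjusted p under 0.05 (background 1.77%). Both were Tnc probes. ILMN_1236724 differed between the strains by 0.83 in males and by -0.98 in females, an interaction of -1.81 (SE 0.63), and ILMN_2485085 by 1.08 and -0.74, an interaction of -1.82 (SE 0.74). Their adjusted p was 0.9999, and each value rests on 2 mice per strain and sex. The count of 2 became 0 without mutant mouse 28, mutant mouse 35 or control mouse 16, 1 without mutant mouse 32, and 5 without control mouse 17. Without control mouse 15 the interaction of ILMN_2485085 was -1.02.

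Whether the YAP and TAZ target genes moved together was tested within the strains. After each strain was centred on its mean, Ctgf and Cyr61 (its brightest probe) had a Pearson r of 0.54 over 8 mice (exact permutation p = 0.200) and a Spearman rho of 0.50 (exact permutation p = 0.198). Ctgf and Thbs1 had r = 0.33 (exact permutation p = 0.446, rho 0.19, p = 0.701), and Cyr61 and Thbs1 r = -0.03 (exact permutation p = 0.960, rho -0.14, p = 0.786). All 576 pairings within strains were used, and over the 3 pairs the adjusted permutation p of r was 0.599, 0.669 and 0.960 and that of rho 0.594, 0.786 and 0.786. Leaving out the 2 mice farthest from the median of the first gene gave r = 0.49, -0.41 and -0.31. No relation could thus be shown at this number of mice, and that of Ctgf and Thbs1 changed sign. When strain and sex were both centred, r of Ctgf and Cyr61 was 0.0044.

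Other genes of these pathways were described from 3 lists. For strain, the probes named from them were those without overlap between the strains, so this separation was the rule of naming and nothing is read from it. Of the paralogs and further matricellular or matrix proteins, 9 of 25 genes (16 probes) were tested, with 10 probes higher and 6 lower in the mutant, a median of 0.19, and 0 adjusted calls. Tgfbi, the paralog of periostin, was 282, 311, 364 and 290 in the mutant and 219, 144, 212 and 79.3 in the control. Every mutant mouse lay above every control mouse, with a difference of 0.95 (SE 0.26). It was the 1 probe of this list higher without overlap (background 2.24% of tested probes), and 0 were lower (background 2.13%).

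Of 22 receptors, 11 were tested with 18 probes, of which 9 were higher and 9 lower in the mutant, with 0 adjusted calls and a median of -0.0019. Egfr, the EGF receptor, which the EGF-like repeats of tenascin-C can bind, was higher in every mutant mouse (30.2 to 56.2 against 13.6 to 25.2), a difference of 0.61 (SE 0.18). Cd44, the hyaluronan and osteopontin receptor, was lower in every mutant mouse by probe ILMN_3114585 (952 to 1537 against 1561 to 1891), a difference of -0.53 (SE 0.18). Of this list 1 probe was thus higher without overlap (background 2.24%) and 1 lower (background 2.13%).

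Of 27 factors and targets of YAP, TAZ, TEAD and MRTF, 14 were tested with 15 probes. In the mutant 4 probes were higher and 11 lower, with a median of -0.22 and 0 adjusted calls. Wwtr1, which encodes TAZ, was higher in every mutant mouse (37.1 to 43.2 against 16.7 to 31.9), a difference of 0.41 (SE 0.15). It was the 1 probe of this list higher without overlap (background 2.24%), and 0 were lower (background 2.13%). In the sex contrast 1 probe of these lists passed limma's test (background 0.0192% of tested probes). This was Nuak2, a kinase related to AMPK and induced by YAP, and it was named after its value was seen. It gave 105, 119, 142 and 98.5 in males 28, 32, 16 and 17 and 462, 435, 326 and 352 in females 34, 35, 15 and 37. All males were below all females, as for Cyr61, with a difference of -1.63 (SE 0.16, limma adjusted p = 0.0234). The call of Nuak2 depended on the setting. No probe at all was called for sex on the linear scale, by the methods' t-test or without mutant mouse 28, 32, 34 or 35. Each other setting called at least 1 probe. Over the whole list, Nuak2 included, 7 of 15 probes were higher and 8 lower in males, with a median of -0.0029.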

How the data were processed

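MouseRef-8 v2.0 BeadChips of Illumina served to measure skin fibroblast RNA of 8 mice, and the labels gave the strain, sex and number of each mouse. Background subtraction and quantile normalization were done by the authors in GenomeStudio (version not given in the sources used here), and the deposited intensity of a probe is on a linear scale. The deposited detection p-value came from the authors' software and negative control beads. Both deposited tables (2) hold identical contents, so normalizations that need raw values were not run, and no chip is named for use as a block. The number of arrays limits the precision, and detected probes were the measure of signal over background.

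Intensities were raised to 0 where negative, and log2(intensity + 16) was analysed. Probes with a detection p-value under 0.01 in all 4 mice of a strain were tested. Differences were fitted 2-sided in limma 3.58.1 (R 4.3.3), p-values were adjusted by Benjamini-Hochberg across every probe in the fit, and the threshold was 0.05, with all 8 mice in each fit, for strain, for sex with strain as a term and for their interaction. Exact permutation tests were 2-sided, within strains for the covariation and without regard to strain for sex. The methods name limma and Student's test. The steps were tested on simulated data. Alternatives were the methods' t-test (on log2 values), 1 or 50 added, the linear scale, other detection filters, a trend, array weights, another covariate, each mouse left out and each sex alone.

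Named genes were every member probe, list probes without overlap between strains (at most 4 a list), the neighbours of Tnn in the order of strain differences, the 5 probes most like it, and marker genes, while Nuak2 was named after its value was seen. Probes of a gene were kept apart. Members and lists were chosen with earlier results of these data known. List symbols were matched to the array through RefSeq names and synonyms, and sequences came from RefSeq.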

Additional observations from a re-analysis of the deposited data

Results flagged for a closer look

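Tnn in control mouse 37 stood apart from the other controls. On the log2(intensity + 16) scale its gap to the nearest control was 0.866 of the range of the 4 control mice, at an intensity of 96.2 against 39.0 to 44.5. Among 42 groups of 4 mice (21 probes in both strains) this was the 1 beyond the 95% limit of Dixon's test, and chance gives about 1 in 20, or 2.1 of 42. Without this mouse the strain difference of Tnn was -0.95.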

How the results depend on the processing

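No paired analysis was possible because no mouse number occurs in both strains. The count of member probes called for strain and for the interaction stayed at 0 under every alternative run. The 3 member probes with an unadjusted p under 0.05 for strain became 5 without control mouse 17 or with a trend, 1 among probes detected on all 8 arrays, 6 in males alone and 1 in females alone, and the 2 for the interaction became 0 to 5 without 1 mouse and 0 on the linear scale or with no filter. The count called for sex was 0 and became 2 with array weights (Cyr61 probe ILMN_2710253 with -1.25, adjusted p = 0.0317, and Tnxb probe ILMN_2440823 with -0.90, adjusted p = 0.0432, limma), where 391 of all probes were called. Leaving out 1 mouse gave 0 to 1, the 1 being Tnxb without control mouse 37. The strain difference of Tnn lay between -1.84 and -0.69 and kept its sign under all 19 alternatives. Over all alternatives the sign changed in 34 of 337 strain values (7 of 17 probes never), 20 of 303 sex values (11 of 17 never) and 20 of 269 interaction values (8 of 17 never). The r of Ctgf and Cyr61 was 0.40 to 0.70 without 1 mouse and 0.0044 with strain and sex centred. That of Ctgf and Thbs1 was -0.16 to 0.65 without 1 mouse, the lowest without control mouse 37, and -0.41 without the 2 farthest mice. That of Cyr61 and Thbs1 was -0.50 to 0.27 without 1 mouse (0.21 without mutant mouse 28, 0.14 without mutant mouse 35 and 0.27 without control mouse 15) and -0.31 without the 2 farthest. The cause of these changes was not tested. The dim probes of Tnn, Tnxb, Postn and Tnc are limited by background, and 4 mice per strain limit every comparison.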
